A study of Rattus norvegicus with 2 samples.

Results

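Haemoglobin-dominated erythroid barcodes of the fetal rat colon are described here. A barcode was a member when the summed UMIs (unique molecular identifiers, 1 per captured transcript) of 10 haemoglobin genes, Hba-a1, Hba-a2, Hba-a3, Hbb, Hbb-bs, Hbe1, Hbe2, Hbg1, Hbz and Hbq1b, exceeded 50% of all its UMIs. No minimum of genes was set, and 3012 of 18617 barcodes met the rule, 1906 of 9714 in the maternal obesity library and 1106 of 8903 in the control library. Of these, 1352 maternal obesity and 913 control members held under 500 genes, and 554 maternal obesity and 193 control members held 500 or more. Members were thus chosen by their globin total, so it is given as a description and carries no further weight. The make-up of the globin UMIs and the remaining transcripts were not part of the rule.

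Both libraries came from the colon of rat fetuses at day E19.5 of gestation with the wild-type (WT) genotype. The maternal obesity group (1 library, replicate 2) came from rats obese in pregnancy, and its library name carries the letters HFD, which the labels do not spell out. The control group (1 library, replicate 1) came from control rats. The labels give neither the diet nor the number of dams, the number or sex of the fetuses, whether fetuses were pooled, or the stretch of colon taken. Before loading on a droplet instrument both cell suspensions were digested with collagenase, filtered and treated with a red cell lysis solution until no red colour was left, a step that can set how many red cells remain. With 1 library per group there is no replicate spread, no test and no p-value, and every interval below covers counting error only.

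Red cells of a fetus are made in waves. Primitive erythroid cells arise in the yolk sac, circulate as nucleated cells and carry embryonic globins, zeta on the alpha side and epsilon on the beta side. Definitive erythroid cells arise later, in the fetal liver, and use the adult alpha and beta chains. A maturing definitive cell stops dividing, expels its nucleus, clears its mitochondria and ribosomes, and fills with haemoglobin until few other transcripts remain. The colon is not known as a site of red cell production, and red cells reach it in its vessels.

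Globin genes of the members are shown through the bases just before their starts, and the chosen 4 are an adult and embryonic pair of each cluster (RefSeq, build GRCr8, all on the minus strand). These are the adult beta gene Hbb at chr1:167663722-167663851, the embryonic beta-like gene Hbe1 at chr1:167696281-167696410, the adult alpha gene Hba-a1 at chr10:15842581-15842710 and the embryonic alpha-like gene Hbz at chr10:15849758-15849887. Each is printed 5′ to 3′ along its gene and ends at the base before the start, and capitals mark 3 motifs searched on both strands. The motifs were CACCC, then CCAAT, and also ATAAA.
Hbb: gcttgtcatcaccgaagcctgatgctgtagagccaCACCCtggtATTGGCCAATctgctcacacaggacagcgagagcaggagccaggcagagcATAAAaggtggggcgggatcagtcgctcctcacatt
Hbe1: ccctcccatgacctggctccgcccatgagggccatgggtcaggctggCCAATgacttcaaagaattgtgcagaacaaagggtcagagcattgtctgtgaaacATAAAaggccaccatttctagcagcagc
Hba-a1: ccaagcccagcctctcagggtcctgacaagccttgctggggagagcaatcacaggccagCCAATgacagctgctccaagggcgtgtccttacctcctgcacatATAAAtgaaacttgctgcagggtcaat
Hbz: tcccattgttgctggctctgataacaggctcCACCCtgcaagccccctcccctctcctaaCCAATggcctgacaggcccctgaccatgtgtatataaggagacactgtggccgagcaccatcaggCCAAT
CACCC, the core of the site that the erythroid factor Klf1 is known to bind, lay 95 bases before the start of Hbb and 99 before that of Hbz, and those letters are not in the windows of Hbe1 and Hba-a1. CCAAT lay in all 4 windows, 81, 83, 71 and 70 bases before the starts of Hbb, Hbe1, Hba-a1 and Hbz. In Hbb it directly followed a copy on the other strand, 86 bases before the start, and Hbz held another 5 bases before its start. ATAAA, part of a TATA box, lay 36, 28 and 27 bases before the starts of Hbb, Hbe1 and Hba-a1. Among 33469 RefSeq promoters of the same 130 bases, 31.4% held CACCC, 21.3% CCAAT and 22.9% ATAAA on either strand, so each motif is common and a match is a description only.

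The deposited values were UMI counts. The maternal obesity library held 120811946 UMIs and the control library 103013814. All other barcodes, those that did not meet the rule, had a median of 8249 UMIs and 2809 genes in maternal obesity and 7998 UMIs and 2643 genes in control. Their median globin count was 14 UMIs in maternal obesity and 1 in control, or 0.175% and 0.0128% of their UMIs. These counts are far below the member threshold, and whether they are free globin RNA in the droplets was not tested. The libraries shared 130 barcode sequences, and 24 of these were members in maternal obesity, 13 in control and 3 in both.

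Globin-dominated barcodes took a larger share of the maternal obesity library. They were 19.6% (95% interval 18.8 to 20.4) of its barcodes, against 12.4% (95% interval 11.7 to 13.1) in control. The members held 22.3% of all UMIs and 96.7% of all globin UMIs in maternal obesity, and 12.3% and 95.8% in control. Whether the lysis step, the blood content of the tissue or the cells themselves differed between the libraries cannot be told apart with 1 library each.

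Few barcodes lay near the threshold, because barcodes fell into a group with almost no globin and a group with almost nothing else. Just inside, at 50 to 55% globin, there were 24 maternal obesity and 9 control members, with medians of 2996 and 1498 genes. Just outside, at 45 to 50%, there were 24 and 26 barcodes, with medians of 3672 genes in maternal obesity and 1678 in control. Over 90% globin was reached by 1310 maternal obesity and 763 control barcodes.

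**Figure D1:**
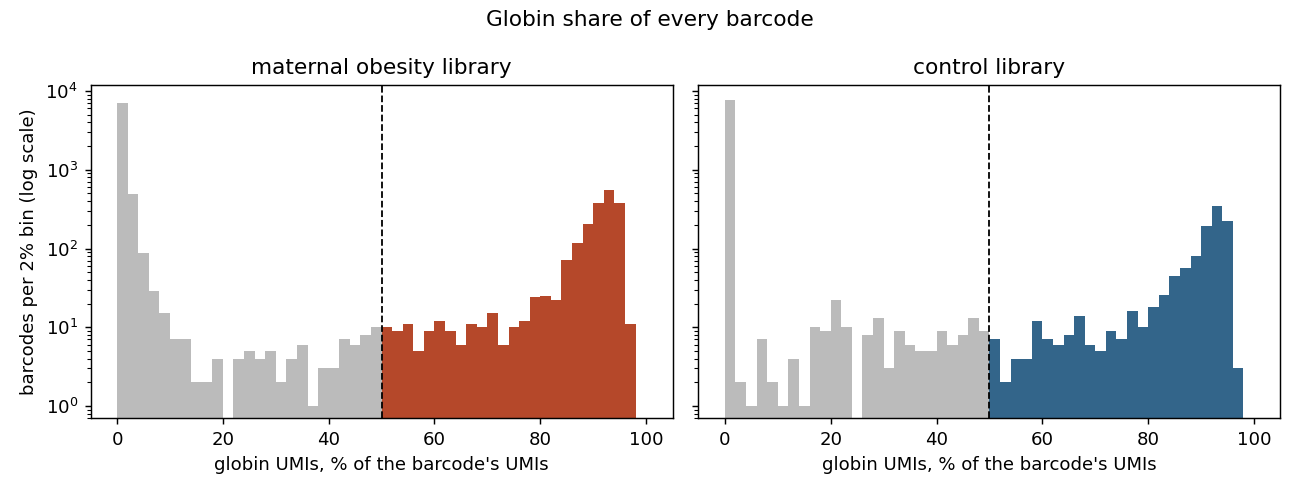
Number of barcodes (log scale) by the share of their UMIs that came from the 10 globin genes, in 2% bins, for the maternal obesity library (left) and the control library (right). Coloured bars right of the dashed line at 50% are the 1906 and 1106 members, and most of them lie over 90%.

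Members with under 500 genes were deep but simple. Their median was 12129.5 UMIs over 334 genes in maternal obesity and 10870 UMIs over 321 genes in control, with globin shares of 92.9% and 92.7%. That left a median of 704 non-globin UMIs per barcode in maternal obesity and 636 in control. Members with 500 or more genes had medians of 20412 UMIs, 601 genes and 89.5% globin in maternal obesity, and 17587, 619 and 87% in control.

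The gene-rich class was the larger share of members in maternal obesity, at 29.1% (95% interval 27 to 31.2) against 17.5% (95% interval 15.3 to 19.8) in control. The excess lay between 500 and 1000 genes, which held 462 maternal obesity and 139 control members. Between 1000 and 2000 genes there were only 19 and 29, and at 2000 or more 73 and 25. Each range starts at its lower bound and ends just below its upper one. Below these lay 1273 maternal obesity and 885 control members with 200 to 500 genes, and 79 and 28 with fewer. The maternal obesity members were also deeper. After every member was thinned to 2000 UMIs, the median number of genes in the class under 500 was 98 in maternal obesity and 98 in control, over 1252 and 850 barcodes, with 100 and 63 shallower ones left out. In the class with 500 or more genes it was 139 in maternal obesity and 159.5 in control, over 554 and 192 barcodes.

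**Figure D2:**
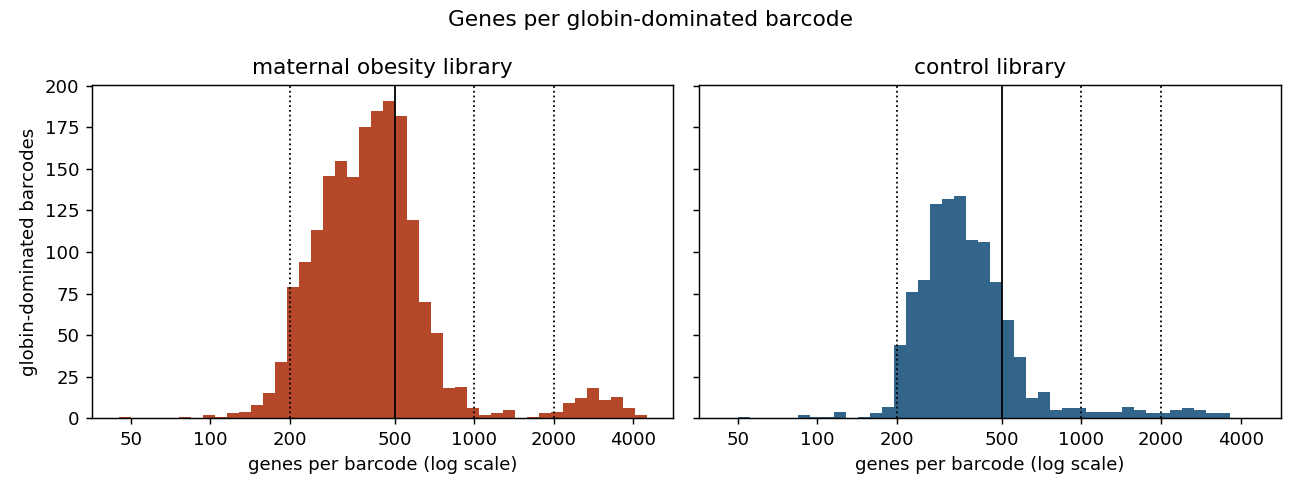
Histogram of genes per globin-dominated barcode (log scale) in the maternal obesity library (left) and the control library (right), with the solid line at 500 genes and dotted lines at 200, 1000 and 2000. Both libraries peak between 200 and 500 genes, and 554 maternal obesity and 193 control members lie right of the solid line.

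The erythroid label held on markers that the rule did not use. In members with under 500 genes Alas2, the first and rate-limiting enzyme of red cell haem synthesis, stood at 17121 in maternal obesity and 16809 in control counts per 1000000 non-globin UMIs (CPM), against 11.8 in maternal obesity and 6.72 in control in all other barcodes. This scale, with all 10 globin genes and LOC100134871 taken out of the total, is used for every level below. Ahsp, which holds free alpha-globin in a stable form, stood at 11378 in maternal obesity and 9556 in control in members and 18.3 in maternal obesity and 17.3 in control in all other barcodes. Slc4a1, the anion exchanger band 3, stood at 2081 in maternal obesity and 971 in control against 2.98 in maternal obesity and 2.84 in control. Slc25a37, which carries iron into mitochondria, stood at 873 in maternal obesity and 786 in control against 7.93 in maternal obesity and 12.7 in control. All 4 were higher in members of either library than in the other barcodes of that library.

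Barcode by barcode the markers were less complete. At 2000 UMIs per barcode, at least 1 UMI of Alas2 was found in 77.8% of maternal obesity and 74.8% of control members under 500 genes, against 0.835% and 1.02% of other barcodes. Without thinning these shares were 87.2% and 87.4% in members and 2.18% and 1.24% in other barcodes, at the median depths given above. Ahsp was found in 49.3% and 47.3% of thinned members under 500 genes and in 86.5% and 80.2% of those with more. For Slc4a1 the maternal obesity share was higher among members under 500 genes, at 16.8% against 8.59% in control. Gata1, the master regulator of the lineage, was found in 1.12% and 0.824% of the thinned low-gene members, and in 0.0963% and 0.0666% of other barcodes.

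Beside globin, members under 500 genes were led by transcripts that are known to be abundant in late red cells. Tpt1, the translationally controlled tumour protein, had the most UMIs over both libraries, at 33618 in maternal obesity and 32485 in control, against 4209 and 4316 in all other barcodes. The ferritin chains Fth1 and Ftl1, which store iron, and Prdx2, which removes peroxide, also stood above 10000 in both libraries. So did Alas2 and the ribosomal genes Rplp1 and Rpl41. Pabpc1, which binds the poly(A) tails of messenger RNA, stood at 21034 in maternal obesity and 8054 in control, against 1011 and 826 in all other barcodes. Mitochondrially encoded genes took 2.52% of the non-globin UMIs of members under 500 genes in maternal obesity and 1.19% in control, and ribosomal protein genes 18.5% and 21.4%.

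Across genes per barcode the erythroid lists did not move together. Haem synthesis genes summed to 22080.4, 26618, 14825 and 3732 CPM over members with 200 to 500, 500 to 1000, 1000 to 2000 and 2000 or more genes in maternal obesity. In control the same series was 21526, 25977, 21643 and 5636. Both libraries thus had their highest level between 500 and 1000 genes, and the haemoglobin chaperone and redox list peaked there too, at 110842 in maternal obesity and 109114 in control. Ahsp alone stood at 34457 in maternal obesity and 27197 in control in that bin, against 11378 in maternal obesity and 9556 in control in members under 500 genes. Members under 200 genes were low in both lists, with haem synthesis at 7709 in maternal obesity and 8526 in control.

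Transcription factor and proliferation genes peaked 1 bin higher. The erythroid transcription factors summed to 2677 in maternal obesity and 4142 in control between 500 and 1000 genes, and to 4811 and 6049 between 1000 and 2000. Klf1, which switches on red cell genes including adult beta-globin, stood at 965 in maternal obesity and 1974 in control in the upper of these bins and 341 in maternal obesity and 367 in control in members under 500 genes. Proliferation genes summed to 14408 and 11362 between 1000 and 2000 genes, against 4295 and 4472 between 500 and 1000, a rise of 3.35-fold in maternal obesity and 2.54-fold in control. The division marker Mki67 stood at 1421 in maternal obesity and 750.4 in control there and 134 in maternal obesity and 85.3 in control in members under 500 genes. These values rest on 19 maternal obesity and 29 control barcodes, and bins are ranges, not cell types. In the same bin fibroblast genes stood at 1747 in maternal obesity and 67.5 in control and smooth muscle genes at 3234 and 210.1, and 94.7% of the maternal obesity and 93.1% of the control barcodes held at least 3 UMIs of another cell type's list. Their part in the peak was not tested. Of the 13 genes of the early progenitor list, 5 had enough UMIs to be measured in members under 500 genes. The genes named next do not stand for the whole list. Kit, the stem cell factor receptor, had 12 and 10 UMIs over all maternal obesity and control members under 500 genes. Epor, the erythropoietin receptor, had 29 and 24 there. Cd34 and Gata2, picked after their values were seen, had none in either library.

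The most gene-rich members carried transcripts of other cell types as well. At 2000 or more genes the fibroblast list reached 8730.3 CPM in maternal obesity and 5354 in control, against 4837 and 2099.8 in all other barcodes. Smooth muscle and interstitial cell genes reached 9258 in maternal obesity and 17052 in control, against 8316 and 10667 in all other barcodes. Between 500 and 1000 genes the fibroblast list was only 179 in maternal obesity and 131 in control. At 2000 or more genes Col1a1, a collagen of fibroblasts, stood at 2259 in maternal obesity and 1174 in control and Actg2, a smooth muscle actin, at 2378 in maternal obesity and 5973 in control, while Cd74, a macrophage gene, had 1224 UMIs in maternal obesity and 0 in control. No doublet caller was run, since all barcodes of the rule were kept, and whether these barcodes are droplets with a red cell and a second cell was not tested. Their 73 and 25 barcodes held 710401 of the 1667859 non-globin UMIs of the class with 500 or more genes in maternal obesity and 201912 of 571296 in control, so values between 500 and 1000 genes are set beside those of the whole class below.

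**Figure D3:**
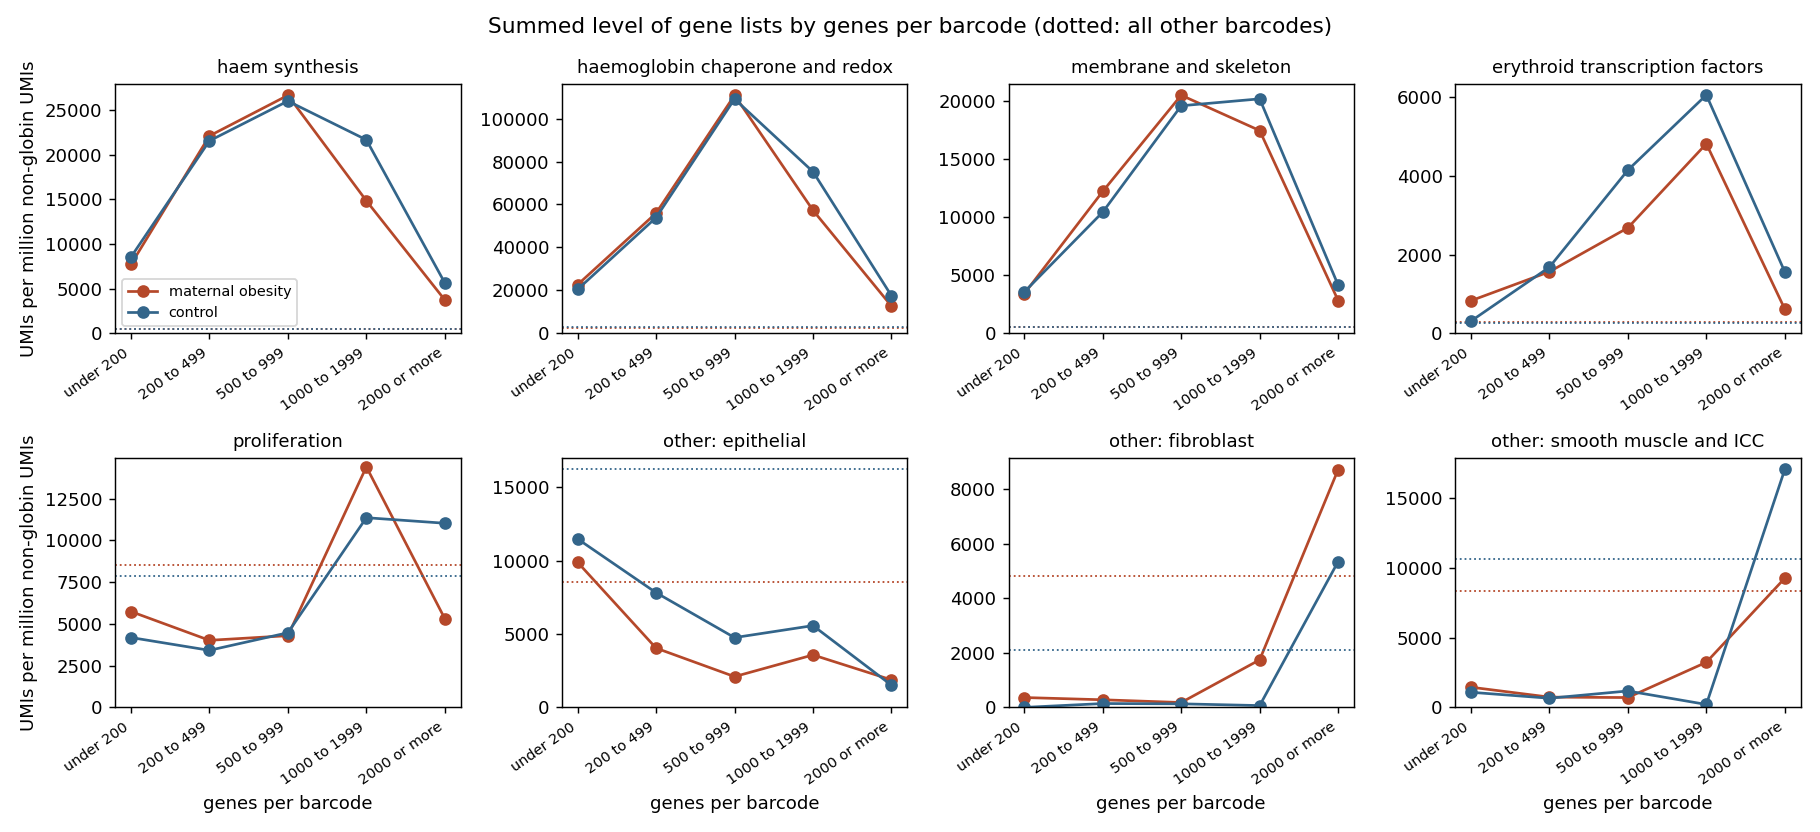
Summed level of 8 gene lists (UMIs CPM non-globin UMIs, linear axes from 0) in globin-dominated barcodes by genes per barcode, for maternal obesity (red) and control (blue), with dotted lines at the level in all other barcodes of each library. Haem synthesis and chaperone lists peak at 500 to 1000 genes, proliferation at 1000 to 2000, and fibroblast and smooth muscle lists are high only at 2000 or more, apart from the 1000 to 2000 bin of maternal obesity.

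The globin make-up was mostly adult and close to balanced between chains. Hba-a1 took 30.7% of all globin UMIs of members in maternal obesity and 29.5% in control, Hba-a2 21.8% and 21.5%, Hbb 39.8% and 42.4%, and Hbb-bs 6.21% and 4.92%. Alpha-like over beta-like UMIs came to 1.14 in maternal obesity and 1.05 in control. Per barcode the alpha-like share had a median of 53.1% (quartiles 50.1 and 55.3) in maternal obesity and 51% (quartiles 48.2 and 53.4) in control, so the spreads overlapped widely. The alpha-like copies, and likewise the beta-like ones, are so alike in sequence that the split of reads between copies is uncertain.

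Some minor copies differed more between the libraries. Hba-a3 took 0.739% of globin UMIs in maternal obesity members and 0.118% in control members, and 0.748% and 0.0358% of those in all other barcodes. LOC100134871, which RefSeq names Hbbl1, a beta-like gene outside the rule, went the other way at 0.567% in maternal obesity and 0.936% in control. Hbq1b, the theta chain, had 963 UMIs in maternal obesity and 557 in control, and Hbe2 38 and 34. The split between near-identical copies is uncertain here too.

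Embryonic globin was rare overall and took a lower share over all members in maternal obesity. Hbe1, Hbe2, Hbg1 and Hbz together made up 0.226% of the rule's globin UMIs in maternal obesity members (interval 0.224 to 0.227) and 0.637% in control members (0.632 to 0.641). These intervals treat every UMI as independent. Most embryonic UMIs sat in a few barcodes, so the intervals are too narrow for the spread between barcodes. Most members had none at all, 1243 in maternal obesity (65.2%) and 657 in control (59.4%). Hbe1, the epsilon chain, had 36438 UMIs in maternal obesity and 56759 in control, Hbg1, a gamma-like gene of the beta cluster, 15705 and 6098, and Hbz, the zeta chain, 2192 and 9461. In summed UMIs the order was the other way for members with 2000 or more genes, at 0.749% in maternal obesity and 0.257% in control. There the highest maternal obesity barcode held 6309 of the 7060 Hbe1 UMIs. It was the other way too for all other barcodes, at 0.907% and 0.27% of their few globin UMIs. As a mean over those barcodes the share was 0.18% in maternal obesity and 0.371% in control, where a barcode without globin UMIs counted as having no embryonic share. Their median globin count was 14 UMIs in maternal obesity and 1 in control. A single UMI can thus set the share of a barcode, above all in control, and this mean is uncertain. Hbg1 as a share of globin UMIs was higher in maternal obesity, at 0.0648% against 0.0532% in control. Only 578 of the Hbg1 UMIs in maternal obesity and 1235 in control came from the embryonic-globin barcodes described next, against 28520 and 47305 of the Hbe1 UMIs.

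Most of the embryonic UMIs sat in a few barcodes. Over 20% embryonic globin was found in 12 maternal obesity members (0.63% of all members, 95% interval 0.326 to 1.1) and 30 control members (2.71% of all members, 95% interval 1.84 to 3.85), a limit chosen after the values were seen. Only 1 maternal obesity and 0 control members lay between 10 and 30%, so the limit falls in a gap. In these barcodes the embryonic share ran from 33.3 to 90.5% in maternal obesity (median 52%) and from 38 to 85.3% in control (median 58.8%). They held 31245 of the 54373 embryonic UMIs of maternal obesity members and 57937 of the 72352 of control members.

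These embryonic-globin barcodes had little adult beta chain. Their choice by embryonic share partly sets this, because embryonic and Hbb UMIs are parts of the same globin total. Hbb was a median of 0.821% of their globin UMIs in maternal obesity (highest 3.66%) and 0.393% in control (highest 17.4%), against medians of 40.6% and 43.1% in the other members under 500 genes. Hbe1 took 48.1% and 46.2% of their summed globin UMIs, and Hbz 3.58% and 9.16%. Adult alpha was present beside them, with Hba-a1 at 29.7% in maternal obesity and 28.2% in control, and alpha-like over beta-like UMIs came to 0.988 and 0.998. Epsilon made up most of their beta-like UMIs, as is known of primitive red cells, but the choice by embryonic share favours this. Its promoter printed above holds CCAAT and ATAAA as that of Hbb does, but not the letters CACCC. Those letters are in the window of the embryonic Hbz and not in that of the adult Hba-a1, so they do not divide embryonic from adult genes. Any part of the motifs in the globin make-up was not tested.

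**Figure D4:**
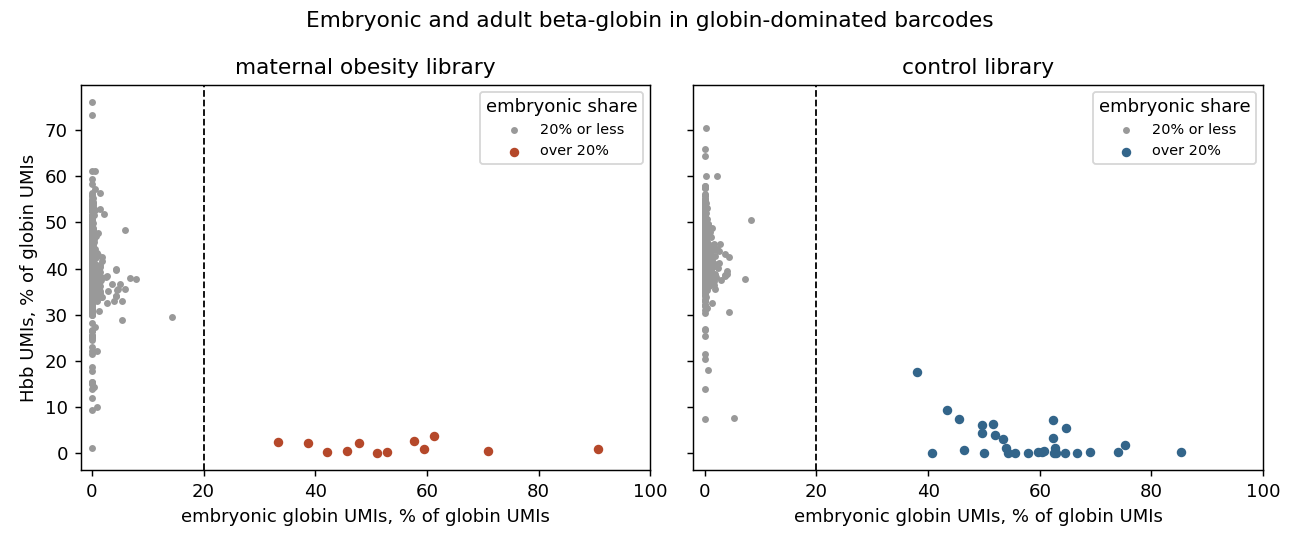
Share of globin UMIs from the adult beta gene Hbb (vertical axis) against the share from the 4 embryonic globin genes (horizontal axis), 1 point per globin-dominated barcode, maternal obesity left and control right. The 12 and 30 coloured points right of the dashed line at 20% have an Hbb share of at most 3.66% and 17.4%, while most grey points stand near 40%. Both shares are parts of the same total, so a high embryonic share leaves less room for Hbb.

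The remaining transcripts of the embryonic-globin barcodes differed from those of other low-gene members in both libraries. These barcodes were shallower, with a median of 5134 UMIs in maternal obesity and 3866 in control, and 10 of 12 and 28 of 30 held under 500 genes. Their summed non-globin UMIs were 18922 in maternal obesity and 20563 in control, and a single maternal obesity barcode with 3361 genes held 10027 of these. Levels below are therefore those of the 10 maternal obesity and 28 control barcodes under 500 genes, a choice made after the values were seen, with 7825 and 17182 non-globin UMIs in all. Fth1 stood at 144281 CPM in the maternal obesity ones, against 23733 in other maternal obesity members under 500 genes (ratio 6.08, interval 5.72 to 6.45). In control it stood at 115120.5 against 36351 (3.17, 3.02 to 3.32). Intervals in these barcodes count UMIs and leave out the spread between so few barcodes. With the gene-rich embryonic-globin barcodes included, the Fth1 ratio was 3.23 in maternal obesity and 2.83 in control.

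Genes of haem and globin handling were scarce there. Alas2 had 4 UMIs in the maternal obesity and 10 in the control barcodes, a level 33.7-fold lower than in other low-gene members in maternal obesity (interval 13.2 to 124) and 29.7-fold lower in control (16.1 to 61.9). Ahsp had 4 and 7 UMIs and was 22.4-fold lower in maternal obesity (8.75 to 82.3) and 24.1-fold lower in control (11.7 to 59.95). Slc4a1 had 0 UMIs in both, at least 5.47-fold lower in maternal obesity and 5.72-fold lower in control when set at the limit of 3 counts over the group. Gpx1 and Gpx4, glutathione peroxidases that protect against peroxides, stood at ratios of 0.433 and 0.219 in maternal obesity and 0.302 and 0.236 in control.

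Car2, a carbonic anhydrase, was at ratios of 0.162 in the maternal obesity barcodes and 0.172 in the control ones. Prdx2 was at 0.551 in the maternal obesity ones (interval 0.443 to 0.679) and at 1.01 (0.894 to 1.13) in the control ones. In the other direction, Mdk, a secreted growth factor of fetal tissues picked here after its values were seen, had 50 UMIs in maternal obesity and 130 in control. Its levels were 6389.8 CPM in maternal obesity and 7566 in control, against 60.1 and 101.01 in other low-gene members. Markers of other cells were uneven between the gene-rich and the remaining barcodes. Over all embryonic-globin barcodes neural genes summed to 4809 in maternal obesity and 195 in control, but to 256 and 233 in those under 500 genes. Smooth muscle genes summed to 528 and 6468 over all, and to 639 in maternal obesity and 873 in control under 500 genes. Epithelial genes were present there too, with Epcam at 3 UMIs in maternal obesity and 21 in control and Krt8 at 4 and 20. At least 3 UMIs of another cell type's list were found in 60% of these maternal obesity barcodes and 78.6% of the control ones. In other low-gene members the shares were 58.2% and 84%.

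Between the libraries, members with under 500 genes differed at a minority of genes. A gene was called when it was at least 1.5-fold apart with an interval clear of 1, among genes with at least 20 UMIs over both libraries. Of 4484 such genes, 267 were higher in maternal obesity (5.95%) and 481 lower (10.7%), with a median log2 ratio of -0.12. In all other barcodes 23.1% of 16093 genes were called higher and 6.59% lower, with far more counts per gene behind each ratio.

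Haem synthesis genes were close in sum, at 21809 in maternal obesity and 21391 in control, and 2 of its 10 measured members were called higher and 2 lower, with a median log2 ratio of -0.06. Alas2 stood at 17121 in the maternal obesity library and 16809 in the control library (ratio 1.02, interval 0.994 to 1.04). Cpox, a late step of the pathway, was higher at 395 in maternal obesity and 224 in control (1.77, interval 1.45 to 2.16), and so was the mitochondrial transporter Abcb10 at 131 in maternal obesity and 69.2 in control (1.89, interval 1.33 to 2.74). Alad, the second step, was lower at 178 in maternal obesity and 320.4 in control (0.556, interval 0.452 to 0.683), as was Tmem14c, a mitochondrial porphyrin carrier, at 196 in maternal obesity and 296 in control (0.66, interval 0.538 to 0.811). Fech, which puts iron into the ring, stood at 2537 in maternal obesity and 2249 in control (1.13, interval 1.06 to 1.2) and Urod at 838 in maternal obesity and 926 in control (0.905, interval 0.814 to 1.01), neither past 1.5-fold.

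The chaperone and redox list was as close, and 2 of its 16 measured members were called higher and 0 lower. Ahsp stood at 11378 in the maternal obesity library and 9556 in the control library (ratio 1.19, interval 1.15 to 1.23), Prdx2 at 20562 in maternal obesity and 16622 in control (1.24, interval 1.21 to 1.27) and Gpx1 at 8526 in maternal obesity and 11704 in control (0.729, interval 0.706 to 0.752). None of these 3 reached 1.5-fold. Of the iron list, 1 of 9 was called higher and 1 lower. Ncoa4, which delivers ferritin for breakdown, was higher at 6192 in maternal obesity and 2851 in control (2.17, interval 2.06 to 2.29), and Fth1 was lower at 24656 in maternal obesity and 38530.3 in control (0.64, interval 0.629 to 0.651). Ftl1, the light chain, stood at 21331 in maternal obesity and 14849.6 in control (1.44, interval 1.4 to 1.47) and its near-identical copy LOC100360087 at 8551 in maternal obesity and 1926 in control (4.44, interval 4.18 to 4.72), with reads split between them uncertainly.

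Membrane and skeleton genes leaned higher in maternal obesity among members under 500 genes. In this list 8 of its 22 measured members were called higher and 2 lower, with a median log2 ratio of 0.29 against -0.12 over all genes tested. With 500 or more genes the list had 3 higher and 8 lower of 25 (median -0.30), and between 500 and 1000 genes 4 and 4 (median -0.13). Slc4a1 stood at 2081 in the maternal obesity library and 971 in the control library (ratio 2.14, interval 1.96 to 2.35). Tmcc2 stood at 1381 in maternal obesity and 623 in control (2.22, interval 1.98 to 2.49), and Epb41, the protein 4.1 that ties spectrin to the membrane, at 809.9 in maternal obesity and 443 in control (1.83, interval 1.59 to 2.1). Car1, a carbonic anhydrase, was also higher at 249 in maternal obesity and 148 in control (1.68, interval 1.32 to 2.16), while the more abundant Car2 stood at 4696 in maternal obesity and 5617 in control (0.836, interval 0.800 to 0.873) and the Rhesus gene Rhd at 1014 in maternal obesity and 1085 in control (0.935, interval 0.848 to 1.03). Of these genes Epb41 and Tmcc2 had ratios of 1.78 and 2.61 in all other barcodes as well, and Slc4a1 one of 1.05.

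Genes of late maturation leaned the same way, and 11 of its 31 measured members were called higher and 5 lower (median log2 ratio 0.22). Ube2o, which marks surplus proteins for breakdown in reticulocytes, stood at 238 in maternal obesity and 62.8 in control (3.79, interval 2.69 to 5.45). Bnip3l, which targets mitochondria for removal, was higher at 2723 in maternal obesity and 1724 in control (1.58, interval 1.47 to 1.7), as were Gabarapl2, a member of the autophagosome coat, at 3334 in maternal obesity and 1992 in control (1.67, interval 1.57 to 1.79) and the RNA-binding Rbm38 at 2592 in maternal obesity and 1697 in control (1.53, interval 1.42 to 1.64). Tent5c, which lengthens poly(A) tails, stood at 5869 in maternal obesity and 4231 in control (1.39, interval 1.32 to 1.45), Mkrn1 at 2715 in maternal obesity and 2758 in control (0.985, interval 0.927 to 1.05) and Map1lc3b at 1763 in maternal obesity and 1631 in control (1.08, interval 1.00 to 1.17), all short of 1.5-fold. Mitochondrially encoded UMIs were the higher share in maternal obesity, as given above, and the part of that share in these ratios was not tested.

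Transcription factors showed no common direction, with 2 called higher and 1 lower of 12 measured (median log2 ratio 0.00). Klf1 stood at 341 in maternal obesity and 367 in control (0.93, interval 0.785 to 1.1) and Gata1 at 99.8 in maternal obesity and 91.8 in control (1.09, interval 0.779 to 1.53). Nfe2, a factor of late globin expression, was lower at 253 in maternal obesity and 488 in control (0.519, interval 0.438 to 0.615), and Lmo2, a partner of Gata1 and Tal1, higher at 124 in maternal obesity and 69.2 in control (1.79, interval 1.26 to 2.6). Of the proliferation list 7 of 24 were called higher and 2 lower (median log2 ratio 0.38), with Mki67 at 134 in maternal obesity and 85.3 in control (1.57, interval 1.14 to 2.2) and Rrm2, needed to make DNA precursors and picked after its values were seen, at 122 in maternal obesity and 74.1 in control (1.65, interval 1.17 to 2.37). Ube2c, needed for the exit from mitosis, stood at 711 in maternal obesity and 715 in control (0.995, interval 0.883 to 1.12).

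The hypoxia and nutrient response list and the complement and adhesion list leaned lower in maternal obesity, here and in all other barcodes. In all other barcodes the hypoxia list had 6 of 22 lower and 1 higher (median log2 ratio -0.22). The complement list had 4 of 9 lower and 0 higher there (median -0.57), against a median of 0.19 over all genes. Among members under 500 genes 10.7% of all genes tested were called lower. Of the hypoxia and nutrient response list 5 of 17 were called lower and 1 higher. Atf4, a stress transcription factor, stood at 161 in maternal obesity and 275 in control (0.586, interval 0.47 to 0.73), and the called-higher member was Igf2, a fetal growth factor, at 512 in maternal obesity and 317 in control (1.61, interval 1.37 to 1.91). Of the complement and adhesion regulators 3 of 7 were lower, with Bsg at 250.4 in maternal obesity and 489 in control (0.512, interval 0.432 to 0.606) and Cd24 at 208 in maternal obesity and 396 in control (0.526, interval 0.436 to 0.635). Cd59, which shields red cells from complement, was higher at 118 in maternal obesity and 74.1 in control (1.6, interval 1.13 to 2.3). Of the red cell glycolysis list 4 of 13 were lower and 1 higher, but its median log2 ratio of -0.08 lay above the -0.12 over all genes tested. Aldoa stood at 1039.8 in maternal obesity and 1766 in control (0.589, interval 0.541 to 0.641) and Pklr, the red cell pyruvate kinase, at 359 in maternal obesity and 266 in control (1.35, interval 1.12 to 1.63).

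The genes whose ratios lay farthest from 1 in the low-gene class are set beside their values in all other barcodes. Wdr91, which works in endosome traffic, stood at 595 in the maternal obesity library and 14.5 in the control library (ratio 41, interval 21.5 to 90.2), and at 21.7 in maternal obesity and 7.16 in control in all other barcodes (3.03, interval 2.77 to 3.31). Ifit1bl, of the interferon-induced Ifit family, stood at 272 in maternal obesity and 43.5 in control (6.26, interval 4.21 to 9.66) and 4.59 in maternal obesity and 2.79 in control in all other barcodes (1.64, interval 1.4 to 1.93). H3f3b, a replacement histone H3, stood at 7372 in maternal obesity and 2668 in control (2.76, interval 2.62 to 2.92), and at 987 in maternal obesity and 559 in control elsewhere (1.77, interval 1.75 to 1.78). Mgst1, a membrane glutathione transferase, had 96 UMIs in maternal obesity and 12 in control (ratio 4.86, interval 2.66 to 9.73). Whether the ratios in members differ from those in other barcodes has no test here.

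Among the 10 highest ratios were also copies whose reads can be split between near-identical loci. LOC100360413, named Eef1a1l1 in RefSeq, stood at 248 in maternal obesity and 11.3 in control (22, interval 10.5 to 55.4) and had a ratio of 21.2 in all other barcodes. RGD1359290, a synonym of the ribosomal pseudogene Rpl17-ps16, had ratios of 6.68 in members and 8.2 in all other barcodes. AABR07066818.1 and AABR07064980.1, which carry no gene name, had ratios of 13.9 and 5.69 in members under 500 genes and 7.06 and 4.69 in all other barcodes. The values of these copies are uncertain.

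The 10 lowest included genes that gut epithelium is known to express. Scgb1a1, a secretoglobin, stood at 19.6 in the maternal obesity library and 262 in the control library (ratio 0.0745, interval 0.0444 to 0.119), and at 37.5 in maternal obesity and 295 in control in all other barcodes (0.127, interval 0.123 to 0.132). The keratins Krt7 and Krt19 had ratios of 0.131 and 0.309 in members and 0.298 and 0.451 in all other barcodes. Tff3, the trefoil peptide of goblet cells, had 0.375 and 0.394, Fam3d 0.237 and 0.245, B3gnt7 0.119 and 0.19, Spink1 0.307 and 0.254, and Ckmt1 0.304 and 0.408. LOC100362027, named Rpl30l2 in RefSeq, and AABR07070043.1, which has no gene name, had 0.32 and 0.334.

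**Figure D5:**
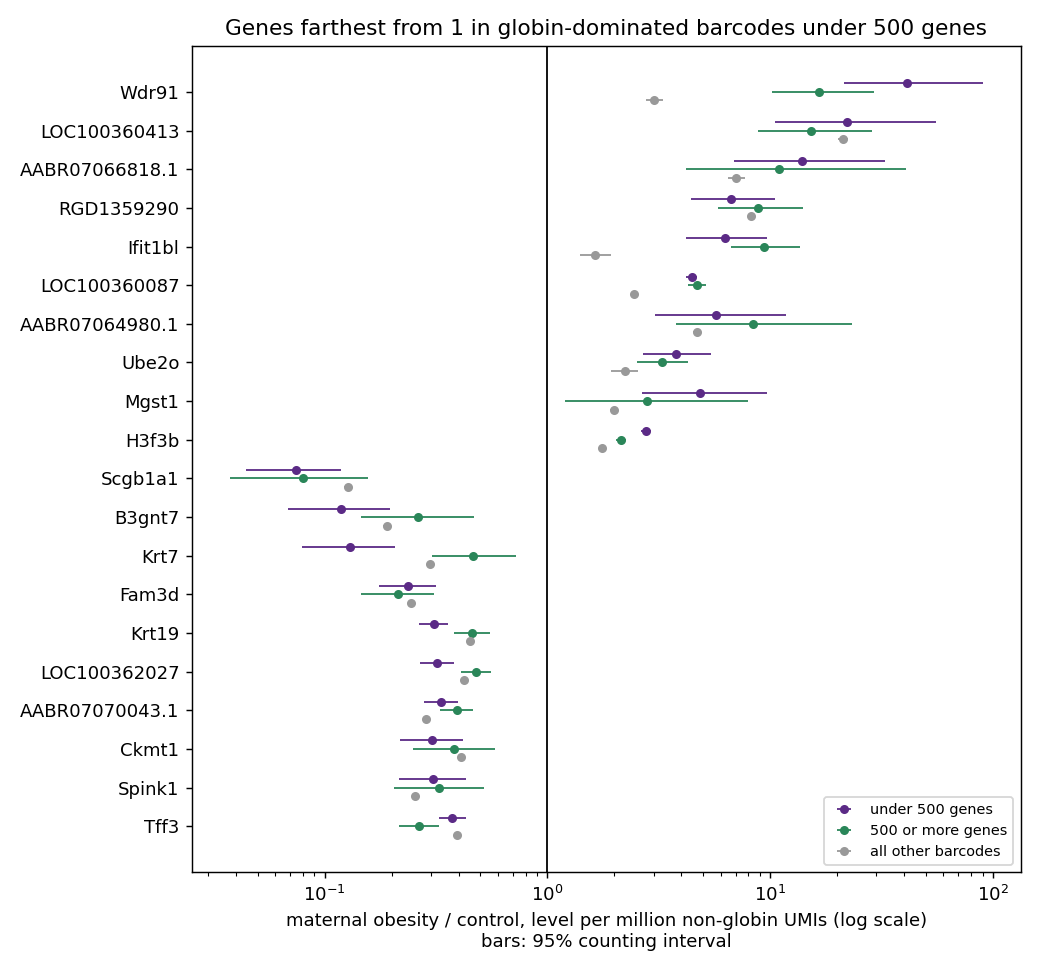
Ratio of maternal obesity over control (log scale, UMIs CPM non-globin UMIs, bars 95% counting intervals) for the 20 genes farthest from 1 in globin-dominated barcodes under 500 genes. For each gene the 3 points are members under 500 genes (purple), members with 500 or more (green) and all other barcodes (grey), and the epithelial genes at the lower end lie left of 1 in all 3.

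Epithelial markers in low-gene members were measured as a list beside these ratios. They summed to 4146 CPM in maternal obesity and 7849 in control, against 8542 and 16264 in all other barcodes, and 1 of its 13 measured members were called higher and 9 lower (median log2 ratio -0.81, and -0.83 in all other barcodes). Immediate early genes had 0 higher and 6 lower of 14 (median -0.42). At least 3 UMIs of the epithelial list were found in 56.7% of maternal obesity and 83.5% of control members under 500 genes. Over all 9 lists of other cell types, at least 3 UMIs of any 1 list were found in 58.2% (interval 55.5 to 60.9) and 83.8% (81.2 to 86.1) of maternal obesity and control members under 500 genes. Fibroblast genes summed to 282 in maternal obesity and 140.1 in control, macrophage genes to 125 and 45.1, endothelial genes to 5.87 and 11.3, and lymphoid genes to 3.91 and 0. Smooth muscle genes summed to 750.2 and 662, neural and glial genes to 287 and 396, granulocyte and mast cell genes to 4.89 and 22.5, and megakaryocyte genes to 29.3 and 1.61 in maternal obesity and control. None of these lists other than the epithelial one reached 1000 CPM. The part of the epithelial RNA in the low-gene members was not tested.

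Members with 500 or more genes differed at a like share of genes. Of 7406 genes 528 were higher in maternal obesity (7.13%) and 803 lower (10.8%). On a scale of all UMIs, globin included, the split was 307 higher and 1385 lower, and the median log2 ratio over all genes was -0.32 in place of -0.09. Between 500 and 1000 genes alone, 178 of 2903 were higher (6.13%) and 431 lower (14.8%), a range chosen after the data were seen. Several of the 10 highest ratios of the whole class came from few barcodes. Il22, a cytokine of lymphoid cells, had 131 UMIs in 5 maternal obesity barcodes, 83.2% of them in 1, and 1 in control. Slpi, an inhibitor of neutrophil elastase, had 112 and 1, with 82.1% in 1 barcode of maternal obesity. Lyz2, the lysozyme of macrophages, had 393 and 2, and 16 and 0 between 500 and 1000 genes. Eln, elastin, had 111 and 3 UMIs, of which 1 and 0 lay between 500 and 1000 genes.

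Wdr91 and Ifit1bl were far apart between 500 and 1000 genes too, where 67.7% of maternal obesity and 90.6% of control barcodes held at least 3 UMIs of another cell type's list. There Wdr91 stood at 745 in maternal obesity and 25.4 in control (29.3, interval 13.4 to 80.2) and Ifit1bl at 973 in maternal obesity and 136 in control (7.18, interval 5.05 to 10.6). Of the genes lower in maternal obesity, Tal1, a founding erythroid transcription factor, had 37 and 80 UMIs in the whole class (ratio 0.158, interval 0.104 to 0.237) and stood at 25 in maternal obesity and 102 in control between 500 and 1000 genes (0.246, interval 0.131 to 0.458). Aqp3, a channel for water and glycerol, stood at 12.5 in maternal obesity and 127 in control (0.0983, interval 0.0444 to 0.202), and at 7.42 in maternal obesity and 69.6 in control in all other barcodes (0.107, interval 0.0984 to 0.115). Chac1, which breaks down glutathione under amino acid stress, had 24 UMIs in maternal obesity and 133 in control (0.0618, interval 0.0383 to 0.096), and 4 and 32 between 500 and 1000 genes. Kcnn4, the calcium-gated potassium channel of red cells, stood at 55.6 in maternal obesity and 182 in control (0.306, interval 0.199 to 0.471), and Rgcc, a cell cycle regulator, at 59 in maternal obesity and 165 in control (0.357, interval 0.231 to 0.556). The small nuclear RNA 7SK, which restrains transcription elongation, stood at 39.7 in maternal obesity and 254 in control (0.156, interval 0.100 to 0.241) and at 50.8 in maternal obesity and 147 in control in all other barcodes.

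The chemokines Cxcl1 and Cxcl2 were lower through 1 control barcode. Cxcl1 had 71 UMIs in maternal obesity and 191 in control, with 91.6% of the control UMIs in 1 barcode, and Cxcl2 had 78 and 187, all control UMIs in 1. The epithelial genes Fam3d and Tff3 had ratios of 0.214 and 0.266, beside 0.245 and 0.394 in all other barcodes.

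Within the gene-rich class, transcription factor, proliferation and haem synthesis genes leaned lower in maternal obesity, which had 19 of its 554 members between 1000 and 2000 genes against 29 of 193 in control. Of the transcription factors 8 of 17 were called lower and 0 higher (median log2 ratio -0.59), and between 500 and 1000 genes 4 of 13 and 0 (median -0.33, against -0.25 over all genes). Of the proliferation list 14 of 24 were lower and 1 higher in the whole class, and 4 of 19 and 2 between 500 and 1000, where its median of -0.06 lay above that of all genes, with -0.74 in the whole class. Haem synthesis had 6 of 11 lower in the whole class (median -0.87) and 1 of 10 between 500 and 1000, with no member higher in either. Between 500 and 1000 genes its median of -0.05 lay above the -0.25 of all genes, of which 14.8% were called lower. The lean of haem synthesis was thus not seen in that range. The early progenitor list had 1 higher and 1 lower of 8 in the whole class (median 0.26).

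Between 500 and 1000 genes Klf1 stood at 709.6 in the maternal obesity library and 1241 in the control library (ratio 0.572, interval 0.497 to 0.659) and Nfe2 at 530.2 in maternal obesity and 1021 in control (0.52, interval 0.444 to 0.609), both lower in maternal obesity. Gata1 stood at 186 in maternal obesity and 233 in control (0.799, interval 0.586 to 1.11), within counting error. Slc25a37, the mitochondrial iron carrier, was lower at 1888 in maternal obesity and 3104 in control (0.608, interval 0.557 to 0.664), and Tfrc, the transferrin receptor that brings iron into the cell, at 54.5 in maternal obesity and 165 in control (0.33, interval 0.212 to 0.517). Ncoa4 was higher at 7961 in maternal obesity and 4036 in control (1.97, interval 1.84 to 2.11) and Ube2o at 611 in maternal obesity and 182 in control (3.35, interval 2.46 to 4.69). Slc4a1 stood at 4678 in maternal obesity and 3634 in control (1.29, interval 1.2 to 1.39), Ahsp at 34457 in maternal obesity and 27197 in control (1.27, interval 1.23 to 1.3) and Alas2 at 15651 in maternal obesity and 14738 in control (1.06, interval 1.02 to 1.1), none past 1.5-fold. Mki67 was lower here at 99.9 in maternal obesity and 258 in control (0.387, interval 0.276 to 0.545), against a higher value in members under 500 genes. Immediate early genes, which respond within minutes to handling, were called lower for 7 of 13 and higher for 0. In the whole class with 500 or more genes 2 of 15 were lower and 4 higher (median 0.51), against a median of -0.87 between 500 and 1000, and their part in these ratios was not tested.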

How the data were processed

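The deposited files hold raw UMI counts per gene and barcode for 2 droplet libraries, 1 maternal obesity and 1 control, made by the authors from reads with Cell Ranger (version 2.1.1 per the submitters' processing notes, 6.1.2 per the file headers). No build was named in the sources used here. Counts of identifiers that share a symbol were summed. Members were found by the globin rule, no doublet caller was run, and their UMIs were summed per library and gene count range. Levels are CPM without globin, ratios carry exact conditional binomial 95% intervals and shares exact Clopper-Pearson ones. Intervals cover counting error only. Named genes were, with under 500 and with 500 or more genes apart, the 10 on either side whose interval bound lay farthest from 1 at 100 or more UMIs, without globin, mitochondrially encoded, ribosomal protein and sex-linked genes. The most abundant genes of each list and of all non-globin genes, and the given markers, were named too. Others are said to be picked later. Members, lists and rules were chosen with earlier results of these data known. Of 343 listed symbols, 14 were not analysed here. Alternatives varied the globin threshold, gene split, scale, minimum count, weights and other-cell barcodes. Ratios were tested on simulated counts. Python 3.11.15, numpy 2.4.6, scipy 1.17.1, pandas 2.3.3 and matplotlib 3.10.9 were used.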

Additional observations from a re-analysis of the deposited data

How the results depend on the processing

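The direction between maternal obesity and control held for the member share, the share with 500 or more genes and the embryonic globin share under the alternatives given here, except for 500 or more genes at a split of 1000. The member share was 18.7% and 13.5% in maternal obesity at globin thresholds of 70 and 90%, and 13.2%, 11.6% and 8.57% in control at 30, 70 and 90%. The share with 500 or more genes was 26.6% and 18.5% in maternal obesity at 70 and 90%, and 21.2%, 15.0% and 6.95% in control at 30, 70 and 90%. With the split at 300 and 1000 genes it was 73.0% and 4.83% in maternal obesity and 66.3% and 4.88% in control. Embryonic globin at 30, 70 and 90% was 0.230%, 0.197% and 0.109% in maternal obesity and 0.630%, 0.629% and 0.215% in control. As a mean over barcodes it was 0.452% and 1.71%, and without Hbg1 0.160% and 0.583%, in maternal obesity and control. The proliferation list between 1000 and 2000 genes over that between 500 and 1000 was 3.67 in maternal obesity and 3.33 in control at 70%.

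For members with 500 or more genes, 528 genes were called higher in maternal obesity and 803 lower. Called higher were 913, 248 and 126 at thresholds of 30, 70 and 90%, 307 on the scale of all UMIs, 242 at a minimum of 100 UMIs, 144 without barcodes that held other cell type markers, 267 in members under 500 genes and 178 between 500 and 1000 genes, the last chosen after seeing the data. Called lower were 142 at 90%, 1385 on all UMIs, 339 at 100 UMIs, 272 without other cell type markers, 481 under 500 genes and 431 between 500 and 1000. Of the 13 lists that were neither globins nor other cell types, with immediate early genes among them, 4 had a positive median. This compares with 2 at 70%, 2 on all UMIs, 2 with equal weights for gene count ranges and 7 under 500 genes. The ratio of Il22 turned round to 0.608 under 500 genes and 0.268 between 500 and 1000, Slpi to 0.954 at 70%, 0 at 90%, 0.169 without other cell type markers and 0.804 between 500 and 1000, and Fam3d and Tff3 to 1.01 and 3.54 without other cell type markers. Without gene-rich embryonic-globin barcodes, added after seeing the data, the Prdx2 ratio to other low-gene members in control was 1.01 against 0.913 with them. The cause was not tested, although the stricter settings also leave fewer barcodes. Of 69 alternative values for the headline results, only 25 stayed the same and 44 moved. Of 317 alternative values for named genes, 247 moved by less than their counting interval, 62 moved further in the same direction and 8 turned round. No paired analysis was possible because each group is 1 library, for which reason no replicate could be left out either.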
